A study of Mus musculus with 15 samples.

Results

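The cornified envelope genes described here are 10 rows of the deposited gene count table, found by an exact match of the gene name: Ivl, Lor, Lce6a, Sprr1a, Sprr1b, Sbsn, Krtdap, Tgm1, Calml3 and Cnfn. All 10 were found among the 54456 genes of the table. They were measured in wild-type mouse mammary gland epithelial organoids, small cultured pieces of mammary epithelium, set beside beads that had been soaked in fibroblast growth factor 10 (FGF10) or in bovine serum albumin (BSA). The series asks whether epithelial-mesenchymal transition takes place while mammary epithelium migrates as a group, and RNA was taken at 0, 36 and 72 h. The 15 libraries formed 5 groups of 3: organoids at 0 h, beside BSA beads at 36 h (replicates 1, 2 and 3) and at 72 h (2_1, 2_2 and 3), and beside FGF10 beads at 36 h (1, 3 and 4) and at 72 h (2, 3 and 4). The replicates at 0 h were 1, 2 and 4. All cultures were in DMEM/F12 with L-Ala-Gln, insulin-transferrin-selenium and penicillin-streptomycin, and the age of the mice is not given in the sources used here. The 0 h group is shared by both arms, and no library of organoids without beads at 36 or 72 h was analysed here.

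The cornified envelope is the protein shell that replaces the plasma membrane of a keratinocyte at the end of its differentiation in stratified epithelium. Transglutaminases, chiefly transglutaminase 1 (Tgm1), cross-link precursors such as involucrin (Ivl), loricrin (Lor), the small proline-rich proteins (Sprr1a, Sprr1b) and the late cornified envelope proteins (Lce6a) into it, with involucrin laid down early and loricrin as the main late component. The simple secretory epithelium of the mammary gland does not normally cornify, and envelope proteins there are known from squamous metaplasia.

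Depth ran from 11965322 to 24261233 counts per library. Levels are in CPM, each count divided by the library total after scaling by the trimmed mean of M values (TMM). The tissue label was checked with epithelial markers: mean Epcam lay between 1557 and 3464 CPM, Krt8 between 2377 and 4687 CPM, and Krt14 between 793.0 and 11960 CPM over the 5 groups. The labels do not say that replicates came from separate animals or cultures, so p-values measure only the spread between these libraries, which may be technical. Replicates 2_1 and 2_2 at BSA 72 h were the most alike of that group, with a median chi-square of 1.44 per gene between their counts, and still differed by more than sampling. Both carry the number 2, and the labels do not say whether they are 2 libraries of 1 culture. They were kept as separate replicates. Member calls lost when their counts were summed are given with the calls. Summed results are not given for the cell type markers or for genes named outside the set. Summing took the calls over all genes for FGF10 against BSA at 72 h from 1087 to 277. FGF10 36 h replicate 4 stood apart from the other 2 of its group, with a median chi-square per gene of 11.03 and 13.1, against 3.85 between those 2, and mitochondrial genes took 1.11% of its counts, against 3.60% and 3.97%. RNA from whole organoids cannot tell fewer cells of a type from less RNA per cell.

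Of the 10 genes, 5 lie in the epidermal differentiation complex, the cluster of envelope genes on mouse chromosome 3. In GRCm39 these are Lor at chr3:91987578-91990449, Sprr1b at chr3:92344116-92346096, Sprr1a at chr3:92391259-92393202, Ivl at chr3:92478209-92481042 and Lce6a at chr3:92527388-92528967, all on the minus strand. Sbsn (chr7:30450896-30455559, plus strand) and Krtdap (chr7:30487321-30490522, plus strand) lie close together, and Cnfn (chr7:25067045-25069149, minus strand) is on the same chromosome. Tgm1 is at chr14:55937466-55951383 and Calml3 at chr13:3852896-3854316, both on the minus strand. These are whole annotated gene spans, and counts were summed over their exons.

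The promoters of 6 members are shown because the members moved in different directions and 5 of these 6 hold a match to the same short motif. They are the 300 bases from 250 before to 50 after the annotated start, read 5′ to 3′ on the gene's strand, from RefSeq with assembly GRCm38.p6. Capitals mark TGANTCA, the letters that AP-1 factors are known to bind, which reads the same on both strands, and TATAAA, the TATA box core, where it stands on the gene's strand. The windows are chr3:92573686-92573985 for Ivl, chr3:92083093-92083392 for Lor, chr3:92621611-92621910 for Lce6a, chr3:92485832-92486131 for Sprr1a, chr3:92438730-92439029 for Sprr1b (all minus strand) and chr7:30787655-30787954 for Krtdap (plus strand).
Ivl: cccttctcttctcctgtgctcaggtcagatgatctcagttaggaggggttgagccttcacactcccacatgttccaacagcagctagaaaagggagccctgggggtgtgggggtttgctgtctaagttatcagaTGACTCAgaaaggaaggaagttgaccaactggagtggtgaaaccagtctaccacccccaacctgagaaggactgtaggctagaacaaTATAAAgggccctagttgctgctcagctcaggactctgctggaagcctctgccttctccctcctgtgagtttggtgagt
Lor: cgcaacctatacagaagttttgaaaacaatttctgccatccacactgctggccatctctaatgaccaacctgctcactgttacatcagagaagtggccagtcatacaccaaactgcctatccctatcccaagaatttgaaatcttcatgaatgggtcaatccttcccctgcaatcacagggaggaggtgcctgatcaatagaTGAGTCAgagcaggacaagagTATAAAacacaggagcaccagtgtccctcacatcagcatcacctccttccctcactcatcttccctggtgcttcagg
Lce6a: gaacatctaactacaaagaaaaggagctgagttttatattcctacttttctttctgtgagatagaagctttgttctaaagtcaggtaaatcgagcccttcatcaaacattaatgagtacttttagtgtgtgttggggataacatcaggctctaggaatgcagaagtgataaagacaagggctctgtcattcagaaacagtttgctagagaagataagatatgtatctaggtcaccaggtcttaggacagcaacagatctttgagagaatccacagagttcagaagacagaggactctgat
Sprr1a: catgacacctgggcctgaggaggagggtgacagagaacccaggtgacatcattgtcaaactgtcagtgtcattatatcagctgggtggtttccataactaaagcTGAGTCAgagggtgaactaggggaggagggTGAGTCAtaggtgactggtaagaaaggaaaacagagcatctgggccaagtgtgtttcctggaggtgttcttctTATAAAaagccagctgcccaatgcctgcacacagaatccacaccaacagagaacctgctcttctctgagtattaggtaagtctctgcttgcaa
Sprr1b: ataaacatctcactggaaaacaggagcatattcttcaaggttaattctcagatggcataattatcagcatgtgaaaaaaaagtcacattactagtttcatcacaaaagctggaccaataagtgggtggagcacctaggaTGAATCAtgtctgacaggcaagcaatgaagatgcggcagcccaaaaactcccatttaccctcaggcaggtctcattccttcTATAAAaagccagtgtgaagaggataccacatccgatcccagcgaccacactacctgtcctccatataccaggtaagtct
Krtdap: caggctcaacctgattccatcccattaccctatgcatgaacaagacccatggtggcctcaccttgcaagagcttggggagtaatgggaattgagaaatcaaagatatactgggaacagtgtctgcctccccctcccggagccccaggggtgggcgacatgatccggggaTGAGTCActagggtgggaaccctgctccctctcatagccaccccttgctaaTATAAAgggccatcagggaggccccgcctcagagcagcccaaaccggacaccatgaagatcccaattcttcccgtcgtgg
TGANTCA was found in 6 of the 9 members with a promoter entry (Ivl, Lor, Sprr1a, Sprr1b, Sbsn and Krtdap) and in 7.81% of all 32841 promoter windows of that length. It begins 116 bases before the start in Ivl, 48 in Lor, 146 and 116 in Sprr1a, 111 in Sprr1b, 81 in Krtdap, and 119 and 6 in Sbsn. TATAAA, searched on both strands, was found in 6 of the 9 and in 13.6% of all windows. On the gene's strand it begins 29 bases before the start in Ivl, 27 in Lor, 43 in Sprr1a, 30 in Sprr1b and 30 in Krtdap, and the match in Lce6a is on the opposite strand at 218. CCACCC, a motif of the kind bound by KLF factors, was found on either strand in 6 of the 9, among them Tgm1, and in 31.5% of all windows. None of these motifs overlapped another in the windows shown. The base at N differed between members: the matches read TGACTCA in Ivl, TGAGTCA in Lor, Krtdap and both sites of Sprr1a, TGAATCA in Sprr1b, and TGAATCA and TGAGTCA in Sbsn. A match describes the sequence only.

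At 36 h, 3 envelope precursors and Sbsn were lower beside FGF10 than beside BSA. Ivl, Lor, Lce6a and Sbsn were lower by 26.2-, 12.8-, 19.2- and 2.10-fold, and the groups did not overlap for any of these 4. The share of all genes whose groups do not overlap was not counted, so separation is given throughout only as a description. No member was called higher by edgeR. DESeq2 called 6 members at 36 h, these 4 and, as higher, Sprr1b and Krtdap (DESeq2 adjusted p = 0.0459 and 0.0313), and limma voom called 2, Sbsn as lower and Sprr1b as higher (limma adjusted p = 0.0162). Of all 18140 genes tested, 0.954% were called higher and 1.39% lower by edgeR at 36 h, and DESeq2 called 1058 genes and limma voom 1415. Calls are at a Benjamini-Hochberg adjusted p under 0.05 over all tested genes, from the quasi-likelihood test of edgeR fitted to all 5 groups. At 72 h, Lor and Sbsn were again lower beside FGF10, by 6.18- and 1.80-fold, and Sprr1b was higher, while Ivl and Lce6a did not pass the test. When replicates 2_1 and 2_2 were added together as 1 library, none of these 72 h calls held (edgeR adjusted p = 0.0549 for Lor, 0.109 for Sbsn and 0.0514 for Sprr1b), nor did those of Ivl and Lce6a at 36 h (0.0627 and 0.0749). Of all genes 3.01% were called higher and 2.98% lower at 72 h. Of the 10 members 9 passed the filter on low counts, and Cnfn did not. Sprr1b was over the filter's cutoff in 7 libraries, those of both FGF10 groups and BSA 36 h replicate 1. The filter therefore kept Sprr1b through the groups where it was high. Calml3 passed through the 72 h groups.

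Ivl encodes involucrin, the early scaffold of the envelope. At 36 h it stood at 16.8, 206.5 and 221.7 CPM beside BSA (replicates 1, 2 and 3) and at 1.76, 11.7 and 3.29 CPM beside FGF10 (replicates 1, 3 and 4). The highest FGF10 library was below the lowest BSA library, although BSA replicate 1 was far under the other 2. The log2 difference, FGF10 minus BSA, was -4.71 ± 1.02 (SE, edgeR adjusted p = 0.0384, n = 3 and 3). At 72 h Ivl stood at 305.2, 317.4 and 543.7 CPM beside BSA and at 87.4, 159.3 and 56.7 CPM beside FGF10. The groups again did not overlap, but the difference of -1.94 ± 0.89 did not pass (edgeR adjusted p = 0.212). Of 23 alternative fits 1 called it, the fit with the replicate number added as a block (-1.58, edgeR adjusted p = 0.0162).

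Lor encodes loricrin, the main protein of the mature envelope. It stood at 3.03, 13.7 and 12.4 CPM beside BSA and at 0.392, 0.603 and 1.27 CPM beside FGF10 at 36 h. At 72 h it reached 41.9, 35.4 and 25.3 CPM beside BSA and 8.08, 6.34 and 2.25 CPM beside FGF10. Every FGF10 library was below every BSA library at both times. The log2 difference was -3.68 ± 0.64 at 36 h (edgeR adjusted p = 0.0112) and -2.63 ± 0.54 at 72 h (edgeR adjusted p = 0.0166).

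Lce6a belongs to the late cornified envelope family. At 36 h it stood at 12.7, 101.4 and 77.3 CPM beside BSA and at 1.24, 5.81 and 2.72 CPM beside FGF10, with a log2 difference of -4.27 ± 0.97 (edgeR adjusted p = 0.0456). At 72 h it stood at 81.3, 81.7 and 92.0 CPM beside BSA and at 31.8, 34.2 and 15.05 CPM beside FGF10. The 72 h groups did not overlap, and the difference of -1.66 ± 0.84 did not pass (edgeR adjusted p = 0.261). Of 23 alternative fits 3 called it: edgeR with the replicate block (adjusted p = 0.0449) or with only the compared groups (0.0212), and limma voom (0.0462). Over both times Lce6a kept the pattern of Ivl, with BSA replicate 1 the lowest of its group at 36 h.

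**Figure D1:**
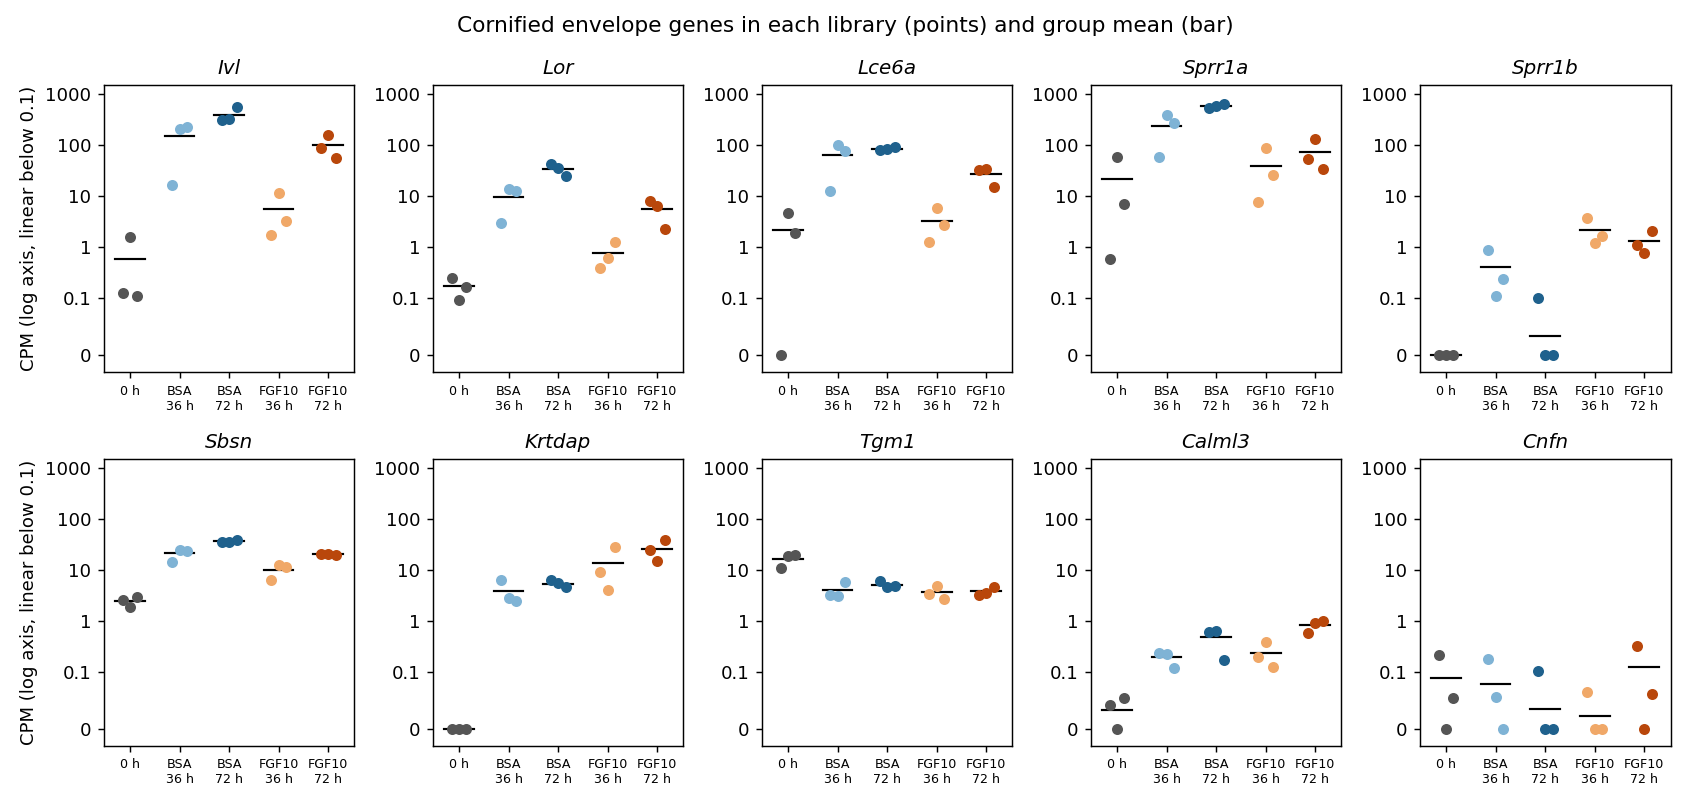
CPM of each member in each library (points) with the group mean (bars), by group; the axis is logarithmic and linear below 0.1 CPM. Ivl, Lor and Sprr1a are highest in the BSA 72 h libraries, Lce6a is highest in BSA 36 h replicate 2, the means of Krtdap and Sprr1b are higher beside FGF10, and Tgm1 is highest at 0 h.

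Sprr1a and Sprr1b encode small proline-rich precursors and lie near each other in the complex, and their differences lay on opposite sides of 0 between the arms. Sprr1a stood at 57.2, 384.1 and 273.3 CPM beside BSA and at 7.51, 85.7 and 25.8 CPM beside FGF10 at 36 h. The groups overlapped, because FGF10 replicate 3 was above BSA replicate 1, and the difference of -2.58 ± 1.26 did not pass (edgeR adjusted p = 0.298). At 72 h it stood at 539.7, 572.1 and 623.5 CPM beside BSA and at 53.1, 128.2 and 33.6 CPM beside FGF10. These groups were well apart, and the log2 difference was -3.02 ± 1.28, which still did not pass in the shared fit (edgeR adjusted p = 0.179).

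Sprr1b was at 0 counts in every 0 h library. At 36 h it stood at 0.892, 0.112 and 0.238 CPM beside BSA (15, 2 and 4 counts) and at 3.66, 1.21 and 1.64 CPM beside FGF10 (56, 22 and 26 counts), with a log2 difference of 2.37 ± 0.72 (edgeR adjusted p = 0.102). At 72 h the BSA libraries held 2, 0 and 0 counts and the FGF10 libraries 17, 9 and 34. The groups did not overlap at either time. The 72 h difference passed, at 4.91 ± 1.03 (edgeR adjusted p = 0.0181), and the ratio of the summed counts per depth was 36.8, with a 95% interval of 9.75 to 310.9 that covers counting error only. Both are paralogs with similar sequence, and fragments that matched several places were not counted, so a part of either gene's reads may be missing.

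Sbsn encodes suprabasin and Krtdap encodes keratinocyte differentiation-associated protein, both secreted proteins of suprabasal keratinocytes. Sbsn stood at 14.3, 24.8 and 23.6 CPM beside BSA and at 6.27, 12.2 and 11.3 CPM beside FGF10 at 36 h, and at 35.9, 34.4 and 38.7 CPM against 20.3, 20.6 and 19.6 CPM at 72 h. The groups did not overlap at either time. The log2 difference was -1.07 ± 0.24 at 36 h (edgeR adjusted p = 0.0287) and -0.85 ± 0.23 at 72 h (edgeR adjusted p = 0.0439).

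Krtdap, close to it on chromosome 7, lay the other way. At 36 h it stood at 6.30, 2.86 and 2.50 CPM beside BSA and at 9.01, 4.002 and 27.8 CPM beside FGF10, with overlapping groups and a difference of 1.80 ± 0.66 (edgeR adjusted p = 0.176). At 72 h it stood at 6.21, 5.42 and 4.56 CPM beside BSA and at 24.4, 15.04 and 38.2 CPM beside FGF10. These groups did not overlap, and the difference of 2.26 ± 0.65 did not pass (edgeR adjusted p = 0.0705), although DESeq2 and limma voom called it (adjusted p = 0.00263 and 0.00143). With the replicate block edgeR called it too (1.70, adjusted p = 0.0136).

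Tgm1 and Calml3, the calmodulin-like protein of differentiating keratinocytes, did not pass the test of FGF10 against BSA at either time. Tgm1 stood at 3.15, 3.14 and 5.71 CPM beside BSA and at 3.33, 4.77 and 2.72 CPM beside FGF10 at 36 h, a log2 difference of -0.14 ± 0.31 (edgeR adjusted p = 0.833). At 72 h it stood at 6.06, 4.54 and 4.73 CPM against 3.21, 3.55 and 4.63 CPM, a difference of -0.43 ± 0.30 (edgeR adjusted p = 0.427). The groups overlapped at both times. Calml3 held 86 counts in all libraries and reached at most 0.975 CPM, with log2 differences of 0.30 ± 0.68 and 0.77 ± 0.54 (edgeR adjusted p = 0.845 and 0.415). Cnfn, which encodes cornifelin, held 19 counts in all and at most 0.321 CPM in a library, and was not tested.

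**Figure D2:**
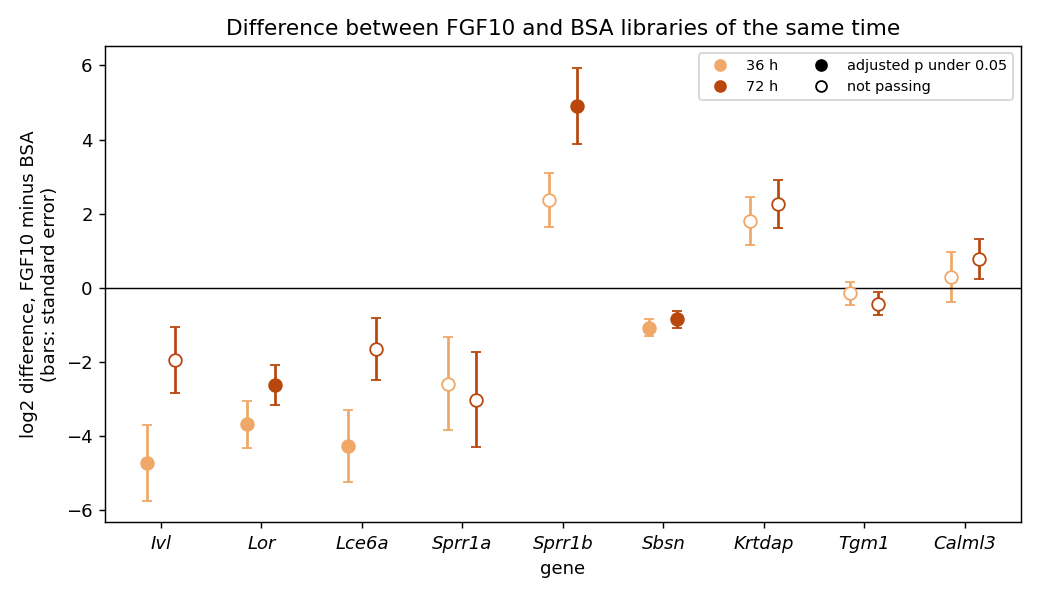
Fitted log2 difference, FGF10 minus BSA, with its standard error (bars) for the 9 tested members at 36 h and 72 h; filled points pass an adjusted p under 0.05. Ivl, Lor, Lce6a, Sprr1a and Sbsn lie below 0 and Sprr1b, Krtdap and Calml3 above it at both times, with 4 filled points at 36 h and 3 at 72 h.

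The Ivl and Lce6a calls at 36 h were close to the threshold. Of 23 alternative fits 13 did not call Ivl and 16 did not call Lce6a. Among these were edgeR with no filter (adjusted p = 0.0712 and 0.0910) or with only the compared groups (0.0979 and 0.0712), and limma voom (0.0617 and 0.0740). The Ivl call was lost without BSA 36 h replicate 2 or 3 (adjusted p = 0.0834 and 0.120) and without FGF10 36 h replicate 1 or 4 (0.118 and 0.0884). It was also lost without any BSA 72 h replicate or FGF10 72 h replicate 2 or 3 (0.0523 to 0.0658). These 72 h libraries are not compared at 36 h, and enter through the filter, scaling, spread and adjustment of the shared fit. The Ivl difference was -5.87 without FGF10 36 h replicate 3. The Lce6a call was lost without any single library other than 0 h replicate 1, 0 h replicate 2 and BSA 36 h replicate 1 (0.0542 to 0.136), and its difference was -5.00 without FGF10 36 h replicate 3. Of single libraries, only the loss of FGF10 36 h replicate 1 ended the 36 h call of Lor (0.0542). That of Sbsn was lost without that library (0.0828) or BSA 36 h replicate 2 or 3 (0.0994 and 0.122). With only the compared groups fitted, both calls were lost (0.0568 for Lor and 0.172 for Sbsn), and limma voom did not call Lor (0.0689). At 36 h, 1 member was called without BSA 36 h replicate 2 or without replicate 3, none without FGF10 36 h replicate 1, and 2 without FGF10 36 h replicate 4, any BSA 72 h replicate or FGF10 72 h replicate 2 or 3.

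At 72 h the Lor call was lost without BSA 72 h replicate 2_1 or 2_2 (adjusted p = 0.0541 and 0.0580) and without FGF10 72 h replicate 3 or 4 (0.0549 and 0.0787). The Sprr1b call was lost without BSA 72 h replicate 2_2 or 3 (0.0795 and 0.0798) and without FGF10 72 h replicate 4 (0.0970), and its difference was 7.46 without BSA 72 h replicate 2_1, the only BSA library with counts there. The Sbsn call was lost without any 1 of the 6 libraries at 72 h (0.106 to 0.183) or BSA 36 h replicate 3 (0.0558). No member was called at 72 h without BSA 72 h replicate 2_2 or without FGF10 72 h replicate 4, and 1 was called without BSA 72 h replicate 2_1 or 3 or without FGF10 72 h replicate 3. Every one of these refits kept the direction of the called members.

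Each time had 2 replicate numbers present in both arms. At 36 h the log2 ratio of FGF10 to BSA for Ivl was -3.25 within number 1 and -4.25 within number 3, and for Sprr1a it was -2.93 and -1.67. At 72 h, with 2_1 and 2_2 averaged, the ratio for Ivl was -1.83 within number 2 and -1.77 within number 3, and for Krtdap it was 2.07 and 1.72. The ratio differed in sign between numbers for Tgm1 at 36 h (0.08 and -0.26) and for Calml3 at 36 h (-0.28 and 1.69) and 72 h (-0.13 and 2.42). Ivl and Sprr1a lay lower and Krtdap higher beside FGF10 in each number at both times.

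Libraries also differed in markers of other cell types. At 72 h the 10 adipocyte markers summed to 413.1 to 417.1 CPM beside BSA, with 8 above 1 CPM, and to 8.89 to 68.6 CPM beside FGF10, with 2 above 1 CPM, and Pck1 was at 0 in both. The 10 immune markers summed to 335.9 to 417.6 CPM beside BSA (7 above 1 CPM) and to 76.8 to 127.4 CPM beside FGF10 (4 above 1 CPM, Cd3e at 0). The 10 endothelial markers summed to 96.2 to 230.6 CPM and to 13.7 to 33.2 CPM, with 10 and 5 above 1 CPM. Of those tested, 5 of 8 adipocyte, 7 of 8 immune and 2 of 10 endothelial markers were called lower beside FGF10 and none higher. Of all genes 2.98% were called lower and 3.01% higher. The 7 basal markers, of epidermal or mammary basal cells, all stood above 1 CPM and summed to 8672 to 10448 CPM beside BSA and 18571 to 20094 CPM beside FGF10. That sum was mostly keratins: Krt14 was at 3666 ± 263 beside BSA and 11960 ± 1666 CPM beside FGF10 and Krt5 at 1286 ± 64 and 3044 ± 199 CPM (SD, n = 3 each), while the 7 had a median log2 difference of 0.04, with 3 called higher (Krt14, Krt5 and Col17a1) and 1 lower (Myh11). The 8 luminal markers, all above 1 CPM, summed to 13718 to 14719 CPM beside BSA and 17918 to 19875 CPM beside FGF10, with a median of 0.14 and 1 called, Krt19, as higher. The 10 fibroblast markers summed to 46.9 to 92.7 CPM (7 above 1 CPM) and to 21.3 to 45.4 CPM (6 above 1 CPM), with a median of -1.98. At 36 h, when Ivl and Lor were lower beside FGF10, the adipocyte sums were 29.4 to 75.9 CPM beside BSA and 15.61 to 21.003 CPM beside FGF10 (2 markers above 1 CPM in each), the immune sums were 149.2 to 214.2 CPM and 77.5 to 205.0 CPM (6 above 1 CPM in each), the endothelial sums were 22.8 to 77.0 CPM and 12.9 to 32.5 CPM (7 and 4 above 1 CPM), and the basal sums were 7542 to 8541 CPM and 10131 to 12783 CPM, with 1 basal marker called, Oxtr, as lower. The luminal sums at 36 h were 14533 to 22361 CPM and 18355 to 24860 CPM, and the fibroblast sums 32.4 to 48.7 CPM and 22.7 to 34.5 CPM. At 36 h 1 of 8 adipocyte and 1 of 8 immune markers tested were called lower, and no endothelial or luminal marker was called. No fibroblast marker was called at either time. Of the 14 hair follicle markers 13 were in the table. They summed to 54.5 to 218.0 CPM over all libraries, and the hair keratins Krt34 and Krt35 were at 0 in all 15. Of the 7 hair follicle markers tested, 1 was called lower beside FGF10 at 36 h and 2 higher at 72 h, among them Padi3. The 7 sebaceous markers summed to 136.9 to 367.7 CPM over all libraries, with 3 or 4 above 1 CPM in a group. The part of these cell types in the envelope gene differences was not tested.

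Whether the difference between arms itself changed from 36 h to 72 h was tested directly, and no member passed. In edgeR, 0% of all genes were called higher and 0% lower in that comparison. Of all genes 998 had an unadjusted p under 0.05, and of the members none did. DESeq2 called 18 genes, limma voom 0, and no member was called by either. The log2 change of the difference was 2.77 ± 1.26 for Ivl (unadjusted p = 0.0501, edgeR adjusted p = 0.905), 2.61 ± 1.23 for Lce6a (edgeR adjusted p = 0.909) and 1.05 ± 0.81 for Lor (edgeR adjusted p = 0.943). A narrower gap at 72 h did not pass the test for any of these 3.

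Compared with 0 h, most members rose in culture under either bead. Beside BSA, 6 of 9 were higher and 1 lower at 36 h, when 12.7% of all genes were called higher and 14.4% lower, and 7 were higher and 1 lower at 72 h, when 12.2% were higher and 13% lower. Beside FGF10, 5 were higher and 1 lower at 36 h (19.3% and 20.5% of all genes) and 7 were higher and 1 lower at 72 h (13.8% and 16% of all genes). These comparisons share the 3 libraries at 0 h, so their values stand side by side and are not independent.

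Ivl stood at 0.127, 1.55 and 0.110 CPM at 0 h, and rose against it by 8.38 ± 1.33 beside BSA at 36 h and 9.77 ± 1.37 at 72 h on the log2 scale (edgeR adjusted p = 0.00083 and 0.00037). Beside FGF10 the rise was 3.67 ± 1.32 at 36 h and 7.83 ± 1.32 at 72 h (edgeR adjusted p = 0.045 and 0.00102). Without 0 h replicate 2, which held most of the Ivl counts at 0 h, these 4 differences were 10.2, 11.6, 5.48 and 9.64, and without 0 h replicate 1 they were 7.76, 9.15, 3.05 and 7.21. The FGF10 36 h rise stayed under 0.05 when 0 h replicate 2, replicate 1 of either 36 h group, or FGF10 72 h replicate 3 was left out, and was lost without any other library (adjusted p = 0.0515 to 0.196), including FGF10 36 h replicate 3, where it was 2.52, and with 2_1 and 2_2 summed (0.0554). Lor, at 0.253, 0.0968 and 0.165 CPM at 0 h, rose by 5.63 ± 0.77 and 7.45 ± 0.77 beside BSA (edgeR adjusted p = 0.000207 and 2.35e-05). Beside FGF10 its difference from 0 h was 1.95 ± 0.95 at 36 h, which did not pass (edgeR adjusted p = 0.12; 0.0453 without BSA 36 h replicate 1), and 4.82 ± 0.79 at 72 h, which did (edgeR adjusted p = 0.000605).

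Lce6a stood at 0, 4.64 and 1.87 CPM at 0 h, and rose beside BSA by 5.10 ± 1.05 and 5.51 ± 1.06 (edgeR adjusted p = 0.00406 and 0.00281). Beside FGF10 it did not pass at 36 h (0.83 ± 1.07, edgeR adjusted p = 0.57), with overlapping groups, and rose by 3.86 ± 1.02 at 72 h (edgeR adjusted p = 0.0146). Without 0 h replicate 2 the 3 called differences of Lce6a were 6.21, 6.62 and 4.96, and without 0 h replicate 1 they were 4.37, 4.78 and 3.13. Sbsn, at 2.62, 1.84 and 2.92 CPM at 0 h, rose in all 4 later groups, by 3.06 ± 0.26 and 3.85 ± 0.27 beside BSA and 1.99 ± 0.26 and 3.004 ± 0.265 beside FGF10, with edgeR adjusted p from 3.62e-07 to 5.12e-05.

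Sprr1a was the most variable member at 0 h, at 0.591, 58.2 and 6.99 CPM. It rose against 0 h in the BSA 72 h group alone of the 4, by 4.76 ± 1.39 (edgeR adjusted p = 0.027), and had differences of 3.48 ± 1.32, 0.90 ± 1.22 and 1.75 ± 1.24 in BSA 36 h, FGF10 36 h and FGF10 72 h (edgeR adjusted p = 0.072, 0.59 and 0.321). Without 0 h replicate 2 the BSA 72 h rise was 7.29, the BSA 36 h difference was called at 6.01 (0.0132) and the FGF10 72 h difference at 4.27 (0.04). The BSA 72 h call was lost without 0 h replicate 4 (0.0881) or any of the BSA 72 h libraries (0.0508 to 0.0533), and with 2_1 and 2_2 summed (0.0507), and without 0 h replicate 1 the rise was 4.17 (0.0474).

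Krtdap and Sprr1b were at 0 counts in all 3 libraries at 0 h. Taking 3 counts over the 0 h group as its floor, Krtdap was at least 67.2-fold higher beside BSA at 36 h and at least 94.4-fold at 72 h, and at least 229.1-fold and 470.5-fold higher beside FGF10. Sprr1b was at least 7.10-fold higher beside BSA at 36 h, and at least 36.6- and 23.8-fold higher beside FGF10 at 36 h and 72 h. All of these passed (edgeR adjusted p from 0.000203 to 0.0169), but the BSA 36 h rise of Sprr1b was lost without BSA 36 h replicate 1 (0.0654), which held 15 of its 21 counts. At BSA 72 h the 2 counts of Sprr1b are under the floor. Fitted values of both genes moved with single libraries: without FGF10 36 h replicate 4, the fitted Krtdap difference from 0 h went from 10.8 to 9.77, and without FGF10 36 h replicate 1 that of Sprr1b went from 8.18 to 7.59.

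Tgm1 moved against the precursors and was the 1 member called lower in each of these 4 comparisons. It stood at 10.7, 18.6 and 19.2 CPM at 0 h, above every later library, the highest of which was at 6.06 CPM. The log2 difference from 0 h was -2.01 ± 0.30 and -1.65 ± 0.30 beside BSA at 36 h and 72 h, and -2.15 ± 0.30 and -2.08 ± 0.30 beside FGF10 (edgeR adjusted p from 9.08e-05 to 0.000856). Calml3 held 2 counts at 0 h. Its ratio to 0 h was 12.6 at BSA 72 h (95% counting interval 3.16 to 109.7) and 21.4 at FGF10 72 h (5.52 to 183.7), both called (edgeR adjusted p = 0.00561 and 0.000883). At FGF10 36 h the Calml3 ratio was 6.34 (1.41 to 58.4), called at 0.0379 and lost without any 0 h replicate or FGF10 36 h replicate 1 or 3 (0.0534 to 0.154), and at BSA 36 h it was 5.07 (1.08 to 47.6), not called (edgeR adjusted p = 0.091).

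Between 36 h and 72 h, Lor and Sbsn rose beside FGF10, by 2.87 ± 0.64 and 1.02 ± 0.24 on the log2 scale (edgeR adjusted p = 0.0415 and 0.0413; 0.0599 and 0.0679 with BSA 72 h 2_1 and 2_2 summed), when 1.42% of all genes were called higher and 0.491% lower. The Lor rise kept its call without 0 h replicate 1, without BSA 36 h replicate 1 or 2, and without the last FGF10 72 h library (4), but was lost without any other single library (adjusted p = 0.0549 to 0.163). The Sbsn rise was lost without BSA 36 h replicate 3, any 72 h library, or FGF10 36 h replicate 1 or 4 (0.0567 to 0.144). Ivl went from 5.58 ± 5.34 to 101.2 ± 52.7 CPM (SD, n = 3 and 3) without overlap, a difference of 4.16 ± 1.00 that did not pass (edgeR adjusted p = 0.0658, and 0.0194 without BSA 36 h replicate 1). It was called by edgeR with the replicate block (3.61, adjusted p = 0.000745) or with only the compared groups (0.0317), and by DESeq2 (0.00224). Beside BSA, 0 of 9 members were called, with 0.325% of all genes called higher and 0.143% lower. There 3 members had an unadjusted p under 0.05 in edgeR: Lor (1.82 ± 0.51), Sbsn (0.80 ± 0.23) and, in the other direction, Sprr1b (-3.24 ± 1.15). Of all 18140 genes tested, 2904 did. DESeq2 and limma voom each called 2 members there, Lor and Sbsn, and 587 and 2586 of all genes in turn.

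To compare levels between genes, CPM was divided by the exon length. Sprr1a had the highest mean per kilobase in every group, from 27.2 ± 39.1 at 0 h to 717.7 ± 52.5 CPM per kb at BSA 72 h (SD, n = 3). Its place at 0 h rested on replicate 2, without which it was at 4.70 CPM per kb and Tgm1 at 4.73. Its place at FGF10 36 h rested on replicate 3, without which it was at 20.7 CPM per kb and Krtdap at 27.1, while Krtdap was at 9.59 without replicate 4. In the BSA groups Ivl and Lce6a came next, at 77.2 ± 59.4 and 80.2 ± 57.7 CPM per kb at 36 h, where they did not differ beyond their spread, and 202.3 ± 69.9 and 106.9 ± 7.64 at 72 h. Beside FGF10 at 36 h, Krtdap was second at 20.02 ± 18.5 CPM per kb, within its spread of Sprr1a at 49.2 ± 50.7, with Lce6a at 4.10 ± 2.93 and Ivl at 2.90 ± 2.78. At FGF10 72 h, Sprr1a (88.9 ± 62.0), Ivl (52.6 ± 27.4), Krtdap (38.1 ± 17.2) and Lce6a (34.0 ± 13.1) lay within their spread of each other. At 0 h Tgm1 was second, at 5.11 ± 1.49 CPM per kb. Lor, the main precursor of skin envelopes, took 1.80% of the summed mean per-length level of the 10 genes at BSA 72 h and 1.38% at FGF10 72 h, against 18.97% and 23.3% for Ivl. Krtdap took 0.746% of that sum at BSA 72 h and 16.9% at FGF10 72 h.

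Within groups Ivl, Lce6a and Sprr1a varied together, and Lor followed them only in part. Lor was lowest in replicate 3 at BSA 72 h and in replicate 2 at 0 h, where Ivl, Lce6a and Sprr1a were highest. Replicate 1 was the lowest of its group at 36 h for Ivl, Lor, Lce6a, Sbsn and Sprr1a, beside BSA and beside FGF10 alike, and the highest for Sprr1b in both. At FGF10 72 h replicate 4 was the lowest for Ivl, Lor, Lce6a, Sbsn and Sprr1a, and the highest for Krtdap and Sprr1b. After group means were taken out, the correlation of log2(CPM + 1) over the 15 libraries was 0.89 for Ivl with Lce6a, 0.91 for Lce6a with Sprr1a and 0.64 for Ivl with Lor. It was 0.37 for Lor with Sprr1a. It was -0.79 for Ivl with Sprr1b, -0.69 for Lor with Sprr1b, -0.65 for Ivl with Krtdap and -0.65 for Sprr1a with Sprr1b. These are descriptions over libraries that differ in depth, and the labels do not say what a replicate number shares. The Sprr1b values rest on at most 56 counts in a library. In culture the spread of Ivl was wider at 36 h: the highest library was 13.2 times the lowest beside BSA and 6.62 times beside FGF10, against 1.78 and 2.81 times at 72 h.

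**Figure D3:**
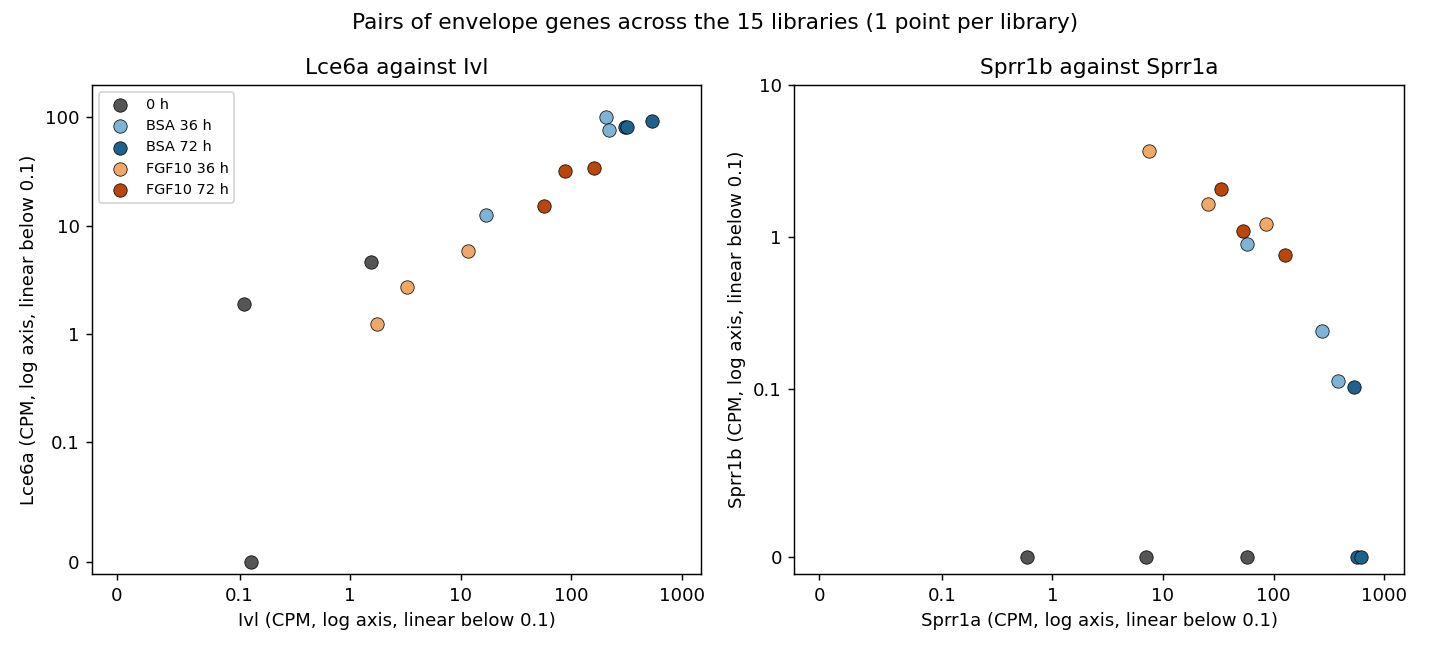
CPM of Lce6a against Ivl (left) and of Sprr1b against Sprr1a (right), 1 point per library, on logarithmic axes that are linear below 0.1 CPM. Lce6a rises with Ivl, while among cultured libraries Sprr1b is highest where Sprr1a is lowest; Sprr1b is 0 in the 3 libraries at 0 h and in 2 of BSA 72 h.

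The epidermal differentiation complex was read from S100a13 to S100a10, the S100 genes at its ends, at chr3:90421742-93471950 in GRCm39. Of its 121 rows 37 had 0 counts in every library and 32 were tested, 27 of them not members. At 36 h, 1 of these 27 was higher beside FGF10 and 2 were lower, when 0.954% and 1.39% of all genes were. The median log2 difference of the 27 was 0.08 against 0.00 over all genes tested. The lower genes were Lce1b, another late envelope gene (0.126 ± 0.071 CPM beside FGF10 and 1.23 ± 0.81 beside BSA, SD, n = 3 each; -3.25 ± 0.67, edgeR adjusted p = 0.0244), and 2210017I01Rik (0.396 and 8.32 CPM; -4.35 ± 0.90, edgeR adjusted p = 0.0263). They lie on either side of Lce6a. The higher one was the predicted gene Gm36953 (2.92 ± 0.70, edgeR adjusted p = 0.0414). At 72 h, 4 of the 27 were higher and 1 lower, with a median of 0.13, when 3.01% and 2.98% of all genes were called higher and lower. S100a6, S100a10 and S100a11, calcium-binding proteins expressed in many epithelia, were higher by 0.93 ± 0.22, 0.89 ± 0.21 and 0.65 ± 0.16 (edgeR adjusted p = 0.0244, 0.0247 and 0.0322). Prr9, a proline-rich gene, was at 0.802 against 0.0966 CPM (37 and 5 counts), a difference of 3.02 ± 0.82 (edgeR adjusted p = 0.0485). All BSA libraries were under the filter's cutoff for Prr9, so the filter kept it through other groups. The predicted gene Gm35439 was lower (-2.51 ± 0.65, edgeR adjusted p = 0.0378). The 36 h calls of Lce1b and 2210017I01Rik were lost without BSA 36 h replicate 2 or 3 or any FGF10 36 h library (adjusted p = 0.0518 to 0.0903 and 0.0557 to 0.101). That of Gm36953 was lost without 9 of the 15 libraries, among them those 2 BSA libraries (0.121 and 0.175) and FGF10 36 h replicates 1 and 3 (0.104 and 0.0904). At 72 h the S100a6, S100a10, S100a11 and Gm35439 calls were lost without any of the 6 libraries compared (0.0573 to 0.163), and that of Gm35439 also without BSA 36 h replicate 3 (0.0537). The Prr9 call was lost without 10 of the 15, with 0.244 without FGF10 72 h replicate 4. The complex held genes called in both directions at 72 h.

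**Figure D4:**
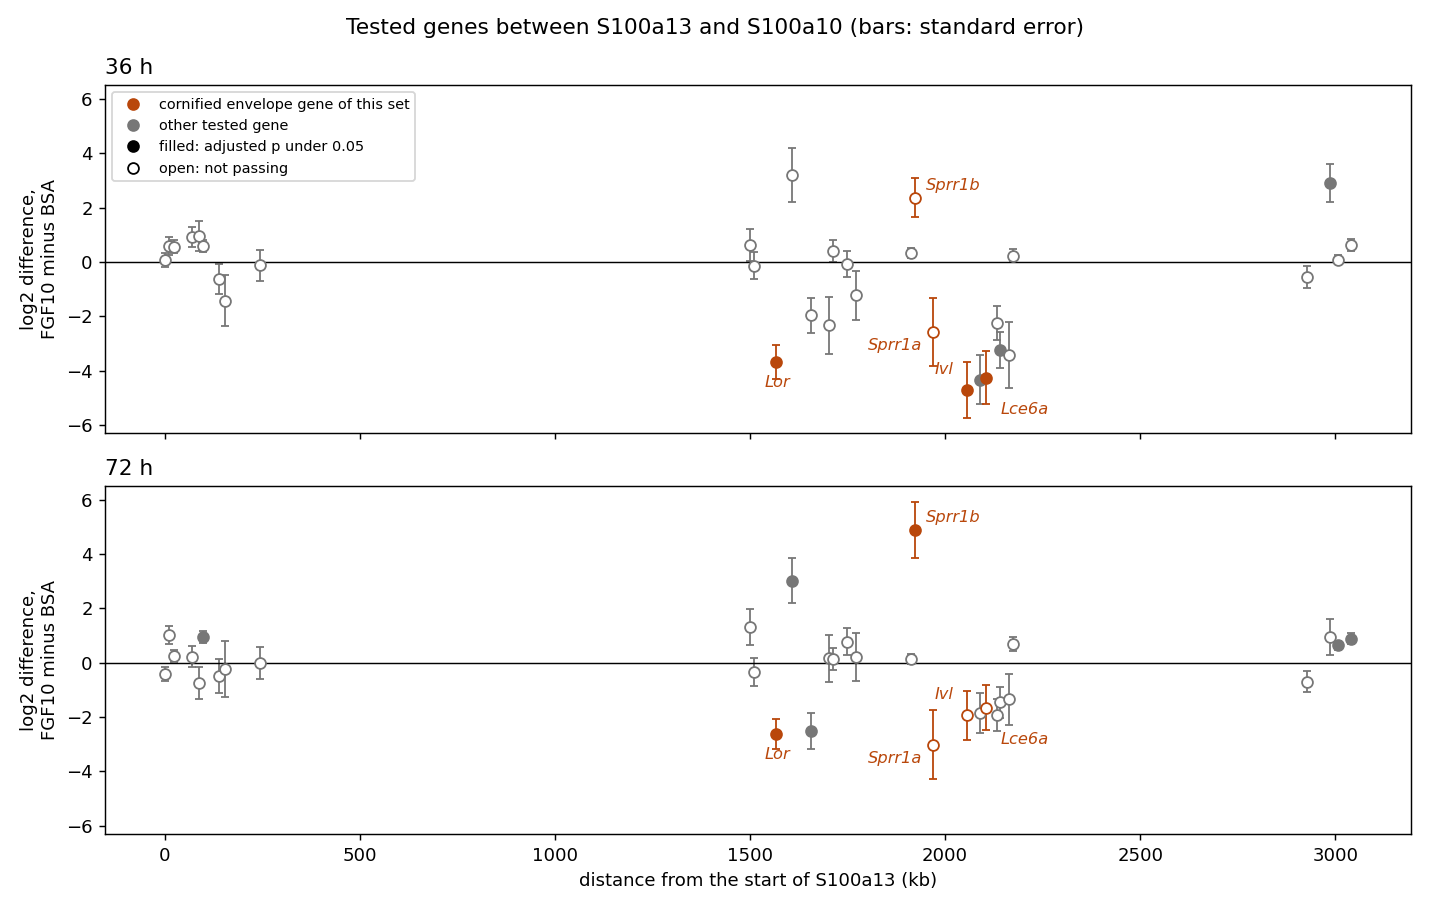
Fitted log2 difference, FGF10 minus BSA, with its standard error (bars) for the 32 tested genes of the epidermal differentiation complex, by distance in kb from the start of S100a13, at 36 h (top) and 72 h (bottom). Ivl and Lce6a lie among tested genes below 0 at 36 h, and Sprr1b lies above 0 and Sprr1a below 0 at both times.

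Other genes of cornification were read from lists chosen by function. For each list the shares over all genes are 0.954% higher and 1.39% lower at 36 h, and 3.01% and 2.98% at 72 h. Of 47 other envelope precursors, 10 were tested; 1 was higher and 1 lower at 36 h, Ppl, which encodes periplakin (0.70 ± 0.17, edgeR adjusted p = 0.0426), and Lce1b, and 1 was higher at 72 h, Prr9. Their median log2 difference was -0.90 at 36 h and 0.18 at 72 h, against 0.00 and -0.01 over all genes tested. Of 11 genes for cross-linking and filaggrin processing, 9 were tested; none was called at 36 h and 1 at 72 h, the peptidylarginine deiminase Padi3, at 1.02 ± 0.54 CPM beside FGF10 and 0.0782 ± 0.090 beside BSA (45 and 4 counts; 3.64 ± 0.78, edgeR adjusted p = 0.0166). Their medians were -0.17 and 0.04.

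Of 21 spinous layer genes, 17 were tested, with 1 higher and 1 lower at 36 h and 1 higher and 2 lower at 72 h, and medians of -0.24 and -0.26. Gsdma, a gasdermin of differentiated epidermis, was lower at both times (-1.78 ± 0.29 and -2.63 ± 0.30, edgeR adjusted p = 0.00714 and 0.000593), and Them5 was lower at 72 h (-1.29 ± 0.34, edgeR adjusted p = 0.0393). Sfn, which encodes stratifin, was higher at both times, at 1318 ± 285 against 624 ± 59 CPM at 36 h and 818 ± 174 against 399 ± 36 CPM at 72 h (1.08 ± 0.23 and 1.04 ± 0.23, edgeR adjusted p = 0.0233 and 0.0176). Of 19 lipid barrier genes, 13 were tested and 1 was called, Sult2b1, a cholesterol sulfotransferase, higher at 72 h (1.16 ± 0.24, edgeR adjusted p = 0.0144), with medians of 0.03 and 0.17.

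Of 17 desquamation proteases and inhibitors, 13 were tested and 1 was higher at each time, with medians of -0.52 and -0.17. It was Serpinb2, a serine protease inhibitor, at 7.21 ± 1.32 against 1.36 ± 0.66 CPM at 36 h (2.39 ± 0.52, edgeR adjusted p = 0.0331) and at 76 counts against 1 at 72 h (edgeR adjusted p = 0.00505). Of 33 regulators of keratinocyte differentiation, 32 were tested, with 1 higher at 36 h, and 1 higher and 1 lower at 72 h, and medians of 0.03 and 0.04. The transcription factor Sox15 was higher at both times (2.39 ± 0.46 and 1.79 ± 0.49, edgeR adjusted p = 0.016 and 0.0439), and the epithelial factor Elf3 was lower at 72 h (-0.94 ± 0.18, edgeR adjusted p = 0.00944). In each list fewer than 4 genes were called at either time.

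The Gsdma calls at both times and the Serpinb2 call at 72 h were kept without any single library. Sox15 lost its 36 h call without BSA 36 h replicate 2 (0.0662), and Elf3 its 72 h call without FGF10 72 h replicate 4 (0.0663). Padi3 and Sult2b1 lost theirs without BSA 72 h replicate 2_1 or 3 or FGF10 72 h replicate 4 (0.0668 to 0.102 and 0.0502 to 0.0949). Sfn lost its 36 h call without any BSA 36 h library (0.0509 to 0.0903), and its 72 h call without any BSA 72 h library or the fourth FGF10 replicate (0.0593 to 0.113). Serpinb2 lost its 36 h call without BSA 36 h replicate 1 or 3, BSA 72 h replicate 2_1 or 2_2, or FGF10 36 h replicate 1 or 3 (0.0511 to 0.147). Them5 and Sox15 lost their 72 h calls without any of the 6 libraries compared, and also without BSA 36 h replicate 3 and replicate 2 in turn (0.0518 to 0.198 and 0.0525 to 0.202). Ppl lost its call without 12 of the 15 libraries (0.0503 to 0.13). No sign changed in any of these refits.

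Genes outside the set with the most similar pattern were ranked by the correlation of log2(CPM + 1) over the 15 libraries, among 12895 named genes averaging 1 CPM or more. For Ivl they were Bcar3, Slc22a4 and Tmprss11f (r = 0.978, 0.977 and 0.976). For Lor they were Cxcl13 (r = 0.990), Acsl6 (0.974) and Klk1 (0.973). Cxcl13, a chemokine, had group means of 0.229 CPM at 0 h, 32.1 and 239.6 beside BSA at 36 h and 72 h, and 1.03 and 22.8 beside FGF10, the same order of groups as Lor. For Sprr1a they were Chst8, Ptx3 and Tcf12 (r = 0.974, 0.967 and 0.962). For Tgm1 they were Pias1, Zfp36 and Nr4a1 (r = 0.971, 0.965 and 0.961), and Zfp36 and Nr4a1, both immediate early response genes, fell from 1444 to at most 77.1 CPM and from 131.8 to at most 16.5 CPM as group means after 0 h. These correlations were chosen as the highest of many and are given as a description.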

How the data were processed

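The values are raw counts per gene, deposited by the authors as 1 table. Per the file headers, featureCounts 2.0.1 counted read pairs over exons by gene name with no strand setting, and did not count multiply mapped fragments or those spanning more than 1 gene. The libraries were made with a stranded mRNA kit, per the labels' protocols, so reads of overlapping antisense genes cannot be told apart in these counts. The submitters' processing notes name the aligner HISAT2 2.2.1, cutadapt 1.9.1, DESeq2, HTSeq and FastQC, in no order, and the build GRCm39. Exon lengths are those the authors deposited beside the counts and were used only for levels per kilobase. The titles of the FGF10 72 h libraries write FGF0, and the treatment label was used.

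In R 4.3.3, all 54456 genes of the 15 libraries (11965322 to 24261233 counts) were filtered with filterByExpr (minimum count 10, total 15), which left 18140. They were scaled with TMM and fitted with the robust quasi-likelihood model of edgeR 4.0.16 (5 groups, 10 residual degrees of freedom, no block), which was tested on simulated data. The 9 contrasts were two-sided, with Benjamini-Hochberg adjustment over all tested genes at 0.05, and each standard error (SE) was obtained by dividing the log2 difference by the root of F. CPM is relative to the TMM-scaled library total. Counting intervals and floors (95%, 3 counts) cover counting error only. Alternatives used DESeq2 1.42.0, limma 3.58.1 (voom), other filters and scaling, a replicate block, and each library left out.

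The members and the gene lists were chosen with earlier results of these data known. Named beside all members were, for each list and for the epidermal differentiation complex, up to 4 called genes with the smallest adjusted p at each time, and the 3 genes most correlated with Ivl, Lor, Sprr1a and Tgm1. Promoters came from RefSeq (GRCm38.p6), which held 9 of the 10 members. The level of 1 marker gene is not reported here by itself.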

Additional observations from a re-analysis of the deposited data

How the results depend on the processing

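Over the 9 tested members and 9 contrasts, 1681 refitted differences kept direction and side of the threshold, 119 lost a call, 36 gained one and 16 changed sign. For FGF10 against BSA at 36 h, where 4 members were called, 2 were called with no filter on low counts, 2 with BSA 72 h 2_1 and 2_2 summed, 0 with only the compared groups fitted, 2 with limma voom and 6 with DESeq2; leaving out 1 library gave 0 to 5. At 72 h, where 3 were called, 0 were called with 2_1 and 2_2 summed, 6 with only the compared groups and 6 with limma voom (in both, Sprr1a, Lce6a and Krtdap besides); leaving out 1 library gave 0 to 4. For FGF10 at 72 h against 0 h, where 8 were called, limma voom gave 5. For BSA 72 h against 36 h, where 0 were called, 1 was called with only the compared groups, 2 with limma voom and 2 with DESeq2. For FGF10 72 h against 36 h, where 2 were called, 1 was called with no filter, 0 with 2_1 and 2_2 summed and 1 with limma voom; leaving out 1 library gave 0 to 3. Leaving out 1 library gave 6 to 8, 7 to 8, 4 to 7 and 8 to 9 called members against 0 h for the 36 h and 72 h groups of BSA and then of FGF10. The cause of these differences was not tested.

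Replicate numbers from the titles were not taken to pair libraries, since the labels do not say what a number shares. Deviations of same-numbered libraries correlated from -0.16 to 0.53 over 21 pairs, with 10 over 0.1 and a median of 0.093. Other pairs had a median of -0.025, with 13 of 69 over 0.1. Between the arms at 36 h the correlation was 0.53 for number 1 and 0.33 for number 3, and -0.31 and -0.36 for number 1 with 3. At 72 h same-numbered libraries of the arms correlated at 0.040 to 0.14. The main fit leaves out any effect that same-numbered libraries share. With a replicate block, 6 members were called at 72 h for FGF10 against BSA, with Ivl (-1.58, edgeR adjusted p = 0.0162), Lce6a (0.0449) and Krtdap (0.0136) besides. For FGF10 72 h against 36 h 5 were called, with Ivl (3.61, edgeR adjusted p = 0.000745), Lce6a (0.0139) and Krtdap (0.0408) besides, and the count at 36 h was 4. Over all genes the block gave 1085, 671 and 479 calls in these 3 comparisons, against 1087, 346 and 425 without it. Sign changes were all among differences that were not called. With the replicate block, Lce6a in BSA 72 h against 36 h was -0.14, and in FGF10 72 h against 36 h Sprr1b was 0.010 and Tgm1 -0.044. With limma voom, Sprr1a in the change of the FGF10 difference was 0.40 and Tgm1 in FGF10 72 h against 36 h was -0.063. Leaving out FGF10 36 h replicate 3 gave -0.26 for Calml3 at 36 h, 0.82 for Sprr1a in the change of the difference and -0.35 for Sprr1a against 0 h. Leaving out BSA 36 h replicate 1 gave 0.027 for Sprr1a and -0.094 for Krtdap in the change of the difference, and -0.061 for Lce6a in BSA 72 h against 36 h. Leaving out BSA 36 h replicate 3 gave 0.20 for Tgm1 at 36 h, and leaving out FGF10 36 h replicate 1 gave -0.026 for Sbsn in the change of the difference. Leaving out FGF10 36 h replicate 4 gave 0.023 for Tgm1 at 36 h and -0.095 in FGF10 72 h against 36 h, where leaving out FGF10 72 h replicate 4 gave -0.10.

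Over all genes, 425 were called at 36 h and 1087 at 72 h for FGF10 against BSA. With DESeq2 these were 1058 and 1977, with limma voom 1415 and 4824, and with only the compared groups 78 and 5025. With 2_1 and 2_2 summed they were 286 and 277. Depth limits Cnfn, Calml3 and Sprr1b, which held 19, 86 and 187 counts in all. CPM scaled by the total count was 0.875 to 1.10 times the TMM-scaled CPM. Where a sign changed on leaving out 1 library, the other end of the range was 0.58 for Calml3 and -0.40 for Tgm1 at 36 h, -1.15 for Sprr1a, 0.42 for Sbsn and 1.53 for Krtdap in the change of the difference, 3.43 for Sprr1a in FGF10 36 h against 0 h, 0.91 for Lce6a in BSA 72 h against 36 h, and 0.33 for Tgm1 in FGF10 72 h against 36 h. Leaving libraries out of the levels per kilobase was chosen after seeing the data.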
